A study of Homo sapiens with 9 samples.

Results

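ZNF genes are the human genes that carry the symbol ZNF followed by a number, and most of their products are zinc finger proteins of the C2H2 type. Their transcripts were followed by 3′ RNA sequencing in MV4-11, a cell line established from a human acute myeloid leukaemia. The table held 475 rows whose symbol was ZNF and a number, and the members described here were selected on their level, as the 275 of these rows with a mean normalised count of at least 20 over all 9 libraries, out of 26929 rows in all. The groups were MV4-11 cells after 24 h with JPX-0700, the same cells after 24 h with JPX-0750, and the same cells after 24 h with the vehicle DMSO, with 3 libraries each. By the series title both compounds are dual degraders of STAT3 and STAT5, transcription factors activated by cytokine receptors and mutant kinases. The dose of either compound is not given in the labels, so whether the doses matched cannot be told. All libraries came from 1 cell line, no untreated library was used here, and the sources do not say whether the 3 libraries of a group were separate cultures, so p-values here measure only how far these libraries differed among themselves.

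A C2H2 finger is a short fold held by a zinc ion between a pair of cysteines and a pair of histidines, and fingers in a row read DNA or RNA letters. Many of these genes also encode a KRAB box, which recruits TRIM28 and through it the methyltransferase SETDB1, HP1 proteins and histone deacetylases, so that the bound site is packed into silent chromatin. KRAB zinc finger proteins are known above all for silencing retroelements, and many of their genes lie side by side in clusters on chromosome 19. Other ZNF proteins have unrelated tasks in splicing, ribosome assembly, mitosis and protein modification.

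All 275 members were annotated as protein-coding. Of the 200 ZNF rows left out, 45 had no value above 0 in any library. Just above the minimum stood ZNF746, ZNF771, ZNF74 and ZNF70 with mean normalised counts of 20.7, 20.6, 20.4 and 20.2, and just below it stood ZNF225, ZNF559, ZNF570 and ZNF383 with 19.9, 19.8, 19.5 and 19.1. Because the minimum was set on the mean over all groups, a gene could enter through its treated libraries alone. The mean was under 20 in 25 members with JPX-0700, in 17 with JPX-0750 and in 55 with DMSO. The 55 include ZNF431, ZNF841 and ZNF460, which are among the genes called below, so their entry rested on the treated libraries. In 23 members 1 library held over 50% of the summed normalised count, and in 20 of these it was JPX-0700 replicate 3. The median over all members is therefore given as a description and as no support for a change.

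Chromosome 19 held 138 of the 275 members, chromosome 7 held 22 and chromosome 16 held 20. A pattern search in their proteins found a median of 10 C2H2 fingers per member, with 0 to 31 in single members, and a KRAB A box in 160 members. Of the members on chromosome 19, 113 had the KRAB pattern, against 47 of the 137 members elsewhere. The pattern misses degenerate boxes, so the other 115 members are called members with no KRAB pattern found.

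JPX-0700 libraries held 739418, 891990 and 1852375 reads on genes, JPX-0750 libraries held 1069328, 726043 and 1941860, and DMSO libraries held 2701317, 6305586 and 4035371. One library in each group (JPX-0700 replicate 3, JPX-0750 replicate 3 and DMSO replicate 1) detected 9816 to 10407 genes, while the other 6 detected 13068 to 14616. Structured noncoding RNAs took 8.16% to 13.5% of reads in treated libraries and 0.0391% to 0.235% in DMSO libraries, and MALAT1, a nuclear noncoding RNA, took 3.49% to 8.92% in treated libraries and 0.176% to 0.547% in DMSO libraries. Of 12 fixed myeloid marker genes 8 were abundant enough to test, namely SPI1, CEBPA, FLT3, CD33, CSF3R, LYZ, ITGAM and MEIS1. MPO and HOXA9 had reads but stayed under the minimum for testing, and CD14 and CSF2RA were at 0 in every library. The myeloid markers summed to 2821 to 5208 normalised counts with JPX-0700, to 2403 to 4235 with JPX-0750 and to 5698 to 9587 with DMSO. Of 10 markers of other lineages HBB, EPCAM and KRT19 were at 0 in every library and 2 (CD3D and COL1A1) were abundant enough to test. The 10 summed to 18.6 to 69.5 normalised counts with JPX-0700, to 24.0 to 108 with JPX-0750 and to 0 to 1.15 with DMSO. The part of these library differences in the results was not tested, and in bulk RNA fewer cells of a type and less RNA per cell cannot be told apart.

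The share of reads on ZNF genes as a class differed between the groups by less than the SD of the libraries when all reads were counted. The 475 rows held 0.843% ± 0.106 of reads with JPX-0700, 0.832% ± 0.0895 with JPX-0750 and 0.831% ± 0.135 with DMSO (SD, n = 3 each). Single libraries ran from 0.721% to 0.906% with JPX-0700, from 0.729% to 0.887% with JPX-0750 and from 0.675% to 0.912% with DMSO, so the groups overlapped. With structured noncoding RNA left out of the total the shares were 0.926% ± 0.108 in JPX-0700 cells, 0.944% ± 0.0877 in JPX-0750 cells and 0.832% ± 0.136 in DMSO cells (SD, n = 3 each). The JPX-0750 libraries then ran from 0.842% to 0.998% and the DMSO libraries from 0.675% to 0.914%, which still overlapped. The share was a small one spread over many genes, and single members rested on few reads. The median member had 13, 17 and 3 reads in the JPX-0700 libraries, 19, 14 and 27 in the JPX-0750 libraries, and 47, 95 and 74 in the DMSO libraries. A count of 3 reads has an exact 95% Poisson interval of 0.619 to 8.77 reads, a count of 13 one of 6.92 to 22.2 and a count of 95 one of 76.9 to 116. The protocol names no molecular identifiers, so these intervals cover counting error only.

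The sparse libraries lost many members outright. JPX-0700 replicate 3 listed 86 members at 0, against 5 and 2 in replicates 1 and 2. JPX-0750 replicate 3 listed 42 at 0, against 1 and 2 in its partners, and DMSO replicate 1 listed 29, against 2 and 1. Of all 9679 genes with a mean of at least 20, 1216 were at 0 in JPX-0700 replicate 3. In JPX-0750 replicate 3 they numbered 819 and in DMSO replicate 1 they numbered 1071. A count of 0 in JPX-0700 replicate 3 allows up to 3 reads, or 8.34 normalised counts, and in DMSO replicate 1 up to 2.69 normalised counts. Other members stood far above both partners in the same libraries. In JPX-0700 replicate 3, 63 members exceeded 2 times the value of both partners and 157 were under 50% of both. The corresponding counts were 25 and 107 in JPX-0750 replicate 3 and 36 and 50 in DMSO replicate 1. These counts were made for members only, so they do not set the members apart from other genes. Across the 275 members, as a description of genes that share a library and its depth, log2 values correlated at 0.714 between JPX-0700 replicates 1 and 2 and at 0.263 and 0.280 between each of them and replicate 3. The same values were 0.797, 0.395 and 0.396 for JPX-0750 and ran from 0.644 to 0.814 among DMSO libraries. Over all genes tested they were 0.843, 0.611 and 0.623 for JPX-0700 and 0.886, 0.684 and 0.686 for JPX-0750. Among DMSO libraries they then ran from 0.869 to 0.941, so replicate 3 of each compound stood apart there too.

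**Figure D1:**
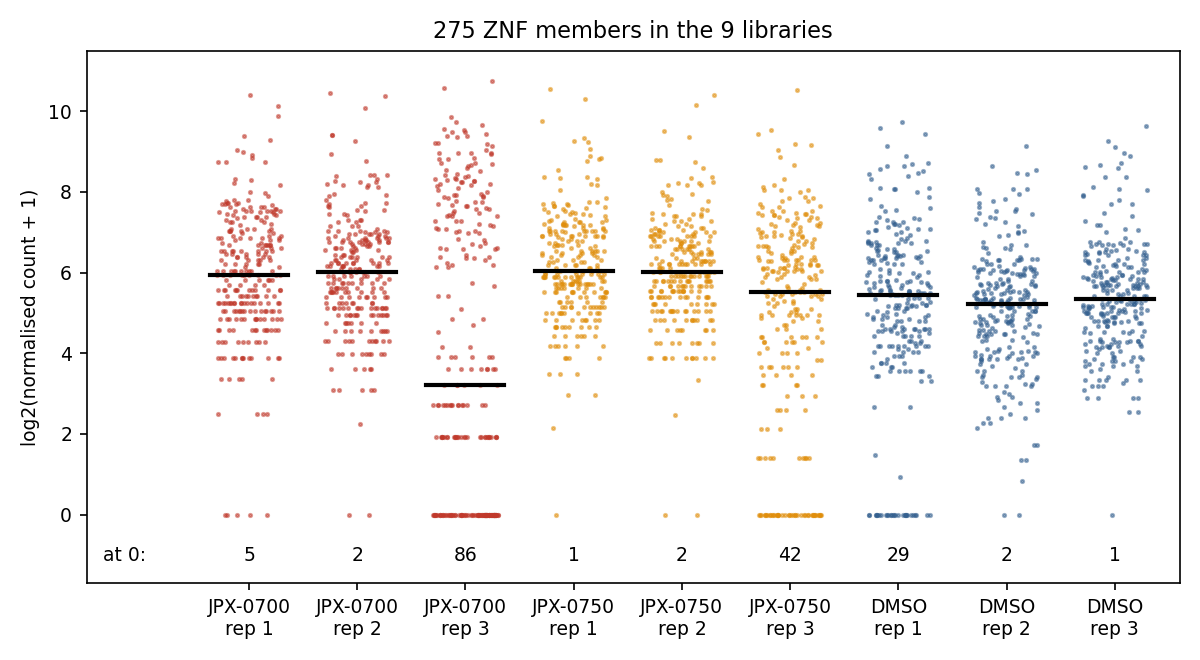
Each point is 1 of the 275 ZNF members in 1 library, on the log2(normalised count + 1) scale, with a black line at the median member; the numbers below give how many members were at 0. JPX-0700 replicate 3, with 86 members at 0, splits into a low and a high cloud, and JPX-0750 replicate 3 and DMSO replicate 1 have 42 and 29 members at 0.

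After JPX-0700, 7 ZNF genes rose and none fell. They were ZNF638, ZNF292, ZNF407, ZNF226, ZNF431, ZNF841 and ZNF701, and their log2 fold changes ran from 2.03 for ZNF292 to 4.80 for ZNF841. These 7 of 275 members are 2.55%, against 5.28% of all 12301 genes tested and 6.69% of the 9679 genes with a mean of at least 20, so the share among ZNF genes lay below the background. Falls numbered 0 of 275 members by limma, against 0.496% of all genes tested. At an unadjusted p under 0.05, 41 members were higher and 4 lower, which is 14.9% and 1.45% of members against 13.5% and 6.03% of all genes tested. Calls used limma on log2(normalised count + 1) with Benjamini-Hochberg adjusted p under 0.05 over all genes tested. Adding 1 shrinks the log2 fold changes of genes with few reads, but a single library at 0 can also turn their sign. As an example, ZNF143 was at 0 in JPX-0700 replicate 3. Its mean normalised counts were 68.0 with JPX-0700 and 59.4 with DMSO, yet its log2 fold change was -1.41.

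ZNF638 encodes a large nuclear protein that binds nucleic acids, takes part in splicing and helps to silence retroviral DNA that has not integrated. It had 1360, 1394 and 1723 normalised counts with JPX-0700, 1493, 1141 and 686 with JPX-0750, and 397, 191 and 556 with DMSO. Every treated library stood above every DMSO library, also JPX-0750 replicate 3, the lowest of the treated ones. ZNF638 rose by 2.09 ± 0.48 (log2, SE) with JPX-0700 (limma, adjusted p = 0.0122). With JPX-0750 the log2 fold change was 1.59 ± 0.48 and the adjusted p of 0.0747 missed the threshold. Without DMSO replicate 2, the lowest of the 9, the JPX-0700 call was lost (adjusted p = 0.0857).

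ZNF292 encodes a multi-finger protein without a KRAB pattern whose mutation causes a neurodevelopmental disorder. Its normalised counts were 622, 488 and 850 with JPX-0700, 531, 427 and 220 with JPX-0750, and 134, 118 and 236 with DMSO. The JPX-0700 libraries did not overlap the DMSO libraries, whereas JPX-0750 replicate 3 lay below DMSO replicate 3. It rose by 2.03 ± 0.52 with JPX-0700 (adjusted p = 0.0268), and JPX-0750 gave 1.24 ± 0.52 (adjusted p = 0.271). The JPX-0700 call was lost without JPX-0700 replicate 1, DMSO replicate 1 or DMSO replicate 2 (adjusted p = 0.0701 to 0.130).

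ZNF407, a protein with 23 finger patterns that is known to support insulin-stimulated glucose uptake in fat cells, had 299.6, 279.5 and 369.6 normalised counts with JPX-0700. It had 322, 305 and 91.6 with JPX-0750, and 12.6, 45.6 and 86.7 with DMSO. All 6 treated libraries were above all DMSO libraries, although JPX-0750 replicate 3 was only just above DMSO replicate 3. The rise with JPX-0700 was 3.05 ± 0.75 (adjusted p = 0.0198), and JPX-0750 gave 2.45 ± 0.75 (adjusted p = 0.0832). Leaving out JPX-0700 replicate 1 or 3 or DMSO replicate 1 or 2 ended the JPX-0700 call (adjusted p = 0.0539 to 0.117), and leaving out DMSO replicate 3 brought the JPX-0750 value past the threshold (adjusted p = 0.0477).

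The other 4 genes that rose with JPX-0700 are KRAB zinc finger genes on chromosome 19. ZNF226, with 17 finger patterns, had 184, 123 and 564 normalised counts with JPX-0700, 175, 168 and 122 with JPX-0750, and 31.4, 25.7 and 36.6 with DMSO. Its DMSO values were close together, and no treated library came near them. ZNF226 rose by 2.88 ± 0.72 with JPX-0700 (adjusted p = 0.0214), and the JPX-0750 value was 2.27 ± 0.72 (adjusted p = 0.0984). The JPX-0700 call ended when DMSO replicate 1 or 2 was left out (adjusted p = 0.0665 or 0.0904), and without JPX-0700 replicate 3 the JPX-0750 value passed the threshold (adjusted p = 0.0116).

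ZNF431, with 12 finger patterns, had 179.7, 130.4 and 133 normalised counts with JPX-0700, 137, 127 and 63.3 with JPX-0750, and 11.7, 14.2 and 32.3 with DMSO. Here JPX-0700 replicate 3 lay close to its partners, and again no treated library overlapped DMSO. The rise with JPX-0700 was 2.99 ± 0.81 (adjusted p = 0.0365), and JPX-0750 gave 2.49 ± 0.81 (adjusted p = 0.114). The JPX-0700 call was lost in 6 of the 9 runs that left out 1 library, namely JPX-0700 replicates 1 and 2, JPX-0750 replicates 1 and 2 and DMSO replicates 1 and 2 (adjusted p = 0.0685 to 0.133). Without JPX-0700 replicate 3 the JPX-0750 value passed (adjusted p = 0.0303).

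ZNF841, with 20 finger patterns, had 92.2, 63.4 and 453 normalised counts with JPX-0700, 61.6, 40.9 and 46.6 with JPX-0750, and 0, 9.20 and 11.3 with DMSO. JPX-0700 replicate 3 held over 50% of its summed normalised count, and DMSO replicate 1 had no read. Its log2 fold change with JPX-0700, 4.80 ± 1.23 (adjusted p = 0.0249), was 3.95 without JPX-0700 replicate 3 (adjusted p = 0.0691) and 3.64 without DMSO replicate 1 (adjusted p = 0.106). Without JPX-0700 replicate 1 it was 5.09 (adjusted p = 0.0551). The JPX-0750 value was 3.32 ± 1.23 (adjusted p = 0.179).

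ZNF701, with 7 finger patterns, had 184, 157 and 739 normalised counts with JPX-0700, 199, 91.0 and 105 with JPX-0750, and 53.9, 34.1 and 53.8 with DMSO. Treated and DMSO libraries did not overlap, and JPX-0700 replicate 3 was again the highest. It rose by 2.56 ± 0.73 with JPX-0700 (adjusted p = 0.0456), and JPX-0750 gave 1.40 ± 0.73 (adjusted p = 0.399). This was the weakest of the 7 calls by adjusted p, and it was lost in 8 of the 9 runs that left out 1 library, all but the one without JPX-0700 replicate 2 (adjusted p = 0.0546 to 0.181).

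After JPX-0750, 1 member rose and none fell, which is 0.364% of the members against 3.9% of all genes tested and 4.93% of genes with a mean of at least 20. For falls the share over all genes tested was 0.0732%. At an unadjusted p under 0.05, 22 members were higher and 1 lower, which is 8% and 0.364% of members against 11.8% and 2.41% of all genes tested. The gene that rose was ZNF460, a KRAB gene on chromosome 19 with 11 finger patterns. Its normalised counts were 106, 48.4 and 11.1 with JPX-0700, 106, 118 and 129.9 with JPX-0750, and 0.898, 1.53 and 17.2 with DMSO. The JPX-0750 libraries lay close together and above all others, except that JPX-0700 replicate 1 was level with their lowest, and JPX-0700 replicate 3 lay within the DMSO range. DMSO replicates 1 and 2 held 1 and 4 reads of the gene, and DMSO replicate 3 held 32. The rise with JPX-0750 was 4.74 ± 1.26 (adjusted p = 0.0400), and JPX-0700 gave 3.17 ± 1.26 (adjusted p = 0.165). The JPX-0750 call was lost without JPX-0700 replicate 1 or 2, without any 1 of the JPX-0750 replicates, and without DMSO replicate 1 or 2 (adjusted p = 0.0522 to 0.177). Without JPX-0700 replicate 3 the JPX-0700 value passed the threshold (adjusted p = 0.0493). Both compounds were compared with the same DMSO libraries, so their fold changes share the DMSO error and are set side by side only.

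**Figure D2:**
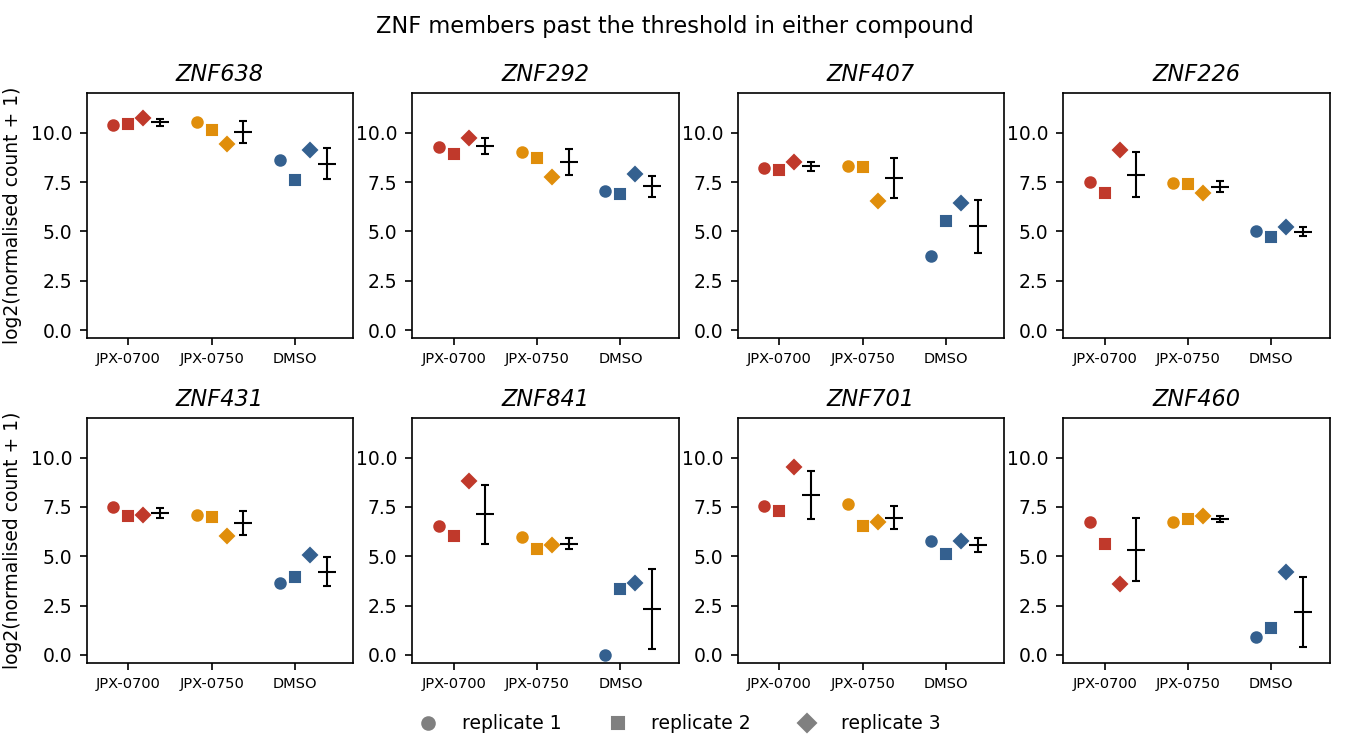
Normalised counts of the 8 ZNF members past the threshold in either compound, on the log2(normalised count + 1) scale, with 1 symbol per replicate and the mean with its SD beside each group. In ZNF638, ZNF407, ZNF226, ZNF431, ZNF841 and ZNF701 all 6 treated libraries lie above the 3 DMSO libraries, in ZNF292 JPX-0750 replicate 3 lies below DMSO replicate 3, and in ZNF460 JPX-0700 replicate 3 lies below DMSO replicate 3.

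These genes lie on 4 chromosomes, and ZNF841 and ZNF701 lie less than 1 Mb apart on chromosome 19. By the RefSeq annotation of GRCh38, ZNF638 spans 71331782 to 71435061 on chromosome 2, ZNF292 spans 87155565 to 87265943 on chromosome 6 and ZNF407 spans 74597870 to 75065671 on chromosome 18, all on the plus strand. On chromosome 19 ZNF431 spans 21142040 to 21196053, ZNF226 44165100 to 44199490, ZNF841 52058490 to 52095765, ZNF701 52570287 to 52600149 and ZNF460 57279982 to 57294069, and of these 5 only ZNF841 is on the minus strand. ZNF701 overlaps the pseudogene ZNF137P and ZNF460 overlaps the antisense gene ZNF460-AS1. The sources used here state neither which strand was counted nor how multiply mapping reads were treated, so reads cannot be assigned between such neighbours, and KRAB genes with near-identical copies in the same cluster are uncertain in the same way.

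RefSeq promoter windows from 250 bases before to 50 bases after the start, in GRCh38.p14, were found for 241 of the 275 members, the 8 genes above among them. The letters CCGGAA, the core bound by ETS factors, stood on either strand in 57.3% of the members' windows, against 33.2% of the windows of the 7022 other genes with a mean of at least 20 and 17.6% of all 27305 windows. The STAT motif TTCNNNGAA stood in 12.9% of the members' windows, 6.32% of the other windows and 7.88% of all windows, and the motif of ZNF143 in 12.4%, 4.39% and 2.09%. GGGCGG, the SP1 core, was in 68.9%, 70.9% and 44.6%, AANATGGCG, bound by YY1, in 7.47%, 8.36% and 3.37%, and the cyclic AMP response element TGACGTCA in 5.81%, 3.47% and 1.98%. Among the 8 genes that rose with either compound, 6 held the ETS letters, 6 the SP1 letters, 1 the STAT letters, 1 the YY1 letters and none the other motifs. A match of letters describes the window only, and no binding was measured. The 150 bases just before the start are shown for the 5 of the 8 genes with the ETS letters within that stretch, from chr2:71331632-71331781, chr18:74597720-74597869, chr19:44164950-44165099, chr19:21141890-21142039 and chr19:57279832-57279981, each on the plus strand and 5′ to 3′. Capitals mark the matches, where TTCCGG is CCGGAA and CCGCCC is GGGCGG on the other strand, and ZNF226 also holds the STAT match.
ZNF638: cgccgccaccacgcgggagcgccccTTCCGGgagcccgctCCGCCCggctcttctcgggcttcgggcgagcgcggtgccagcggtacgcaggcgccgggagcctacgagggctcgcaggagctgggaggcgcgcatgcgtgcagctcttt
ZNF407: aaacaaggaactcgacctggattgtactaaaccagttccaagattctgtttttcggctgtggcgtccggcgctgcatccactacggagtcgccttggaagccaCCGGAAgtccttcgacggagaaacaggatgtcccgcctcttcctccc
ZNF226: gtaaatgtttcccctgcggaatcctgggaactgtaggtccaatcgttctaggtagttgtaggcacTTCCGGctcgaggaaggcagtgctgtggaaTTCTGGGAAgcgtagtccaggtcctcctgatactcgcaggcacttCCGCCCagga
ZNF431: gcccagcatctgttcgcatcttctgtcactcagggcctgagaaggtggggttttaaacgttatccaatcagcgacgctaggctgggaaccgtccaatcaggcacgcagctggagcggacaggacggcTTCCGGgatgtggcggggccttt
ZNF460: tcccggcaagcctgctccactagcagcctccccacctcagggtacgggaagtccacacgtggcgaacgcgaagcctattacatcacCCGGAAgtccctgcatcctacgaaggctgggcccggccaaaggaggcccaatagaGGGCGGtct

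ZNF638, ZNF407, ZNF431 and ZNF460 have 1 ETS match each in these bases and no STAT match. ZNF226 is the 1 gene of the 8 with a STAT match, and its log2 fold changes were 2.88 with JPX-0700 and 2.27 with JPX-0750. All 8 genes were picked because they rose with a compound, so their fold changes cannot be compared by motif. Any part of the motif was not tested.

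The fold changes of the 275 members covered a wide range around the background. With JPX-0700 their log2 fold changes ran from -3.12 to 4.80 with quartiles at -1.17 and 1.24 and a median of -0.10, against a median of 0.14 for all genes tested. With JPX-0750 they ran from -2.47 to 4.74 with quartiles at -0.43 and 1.35 and a median of 0.45, against 0.26. The median standard error of a member was 1.25, against 1.12 for all genes tested and 0.94 for genes with a mean of at least 20. The part of these larger errors in the lower share of members called was not tested. Scaling each library to its total moved the medians of all genes to -0.50 and -0.23, and the members' medians to -0.75 and -0.07, so the direction of the median member with JPX-0750 depended on the scaling. Relative to all genes tested, the members' median with JPX-0700 was -0.24, and it was 0.14 without JPX-0700 replicate 3. The JPX-0750 value was 0.19, and it was 0.04 without DMSO replicate 2.

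**Figure D3:**
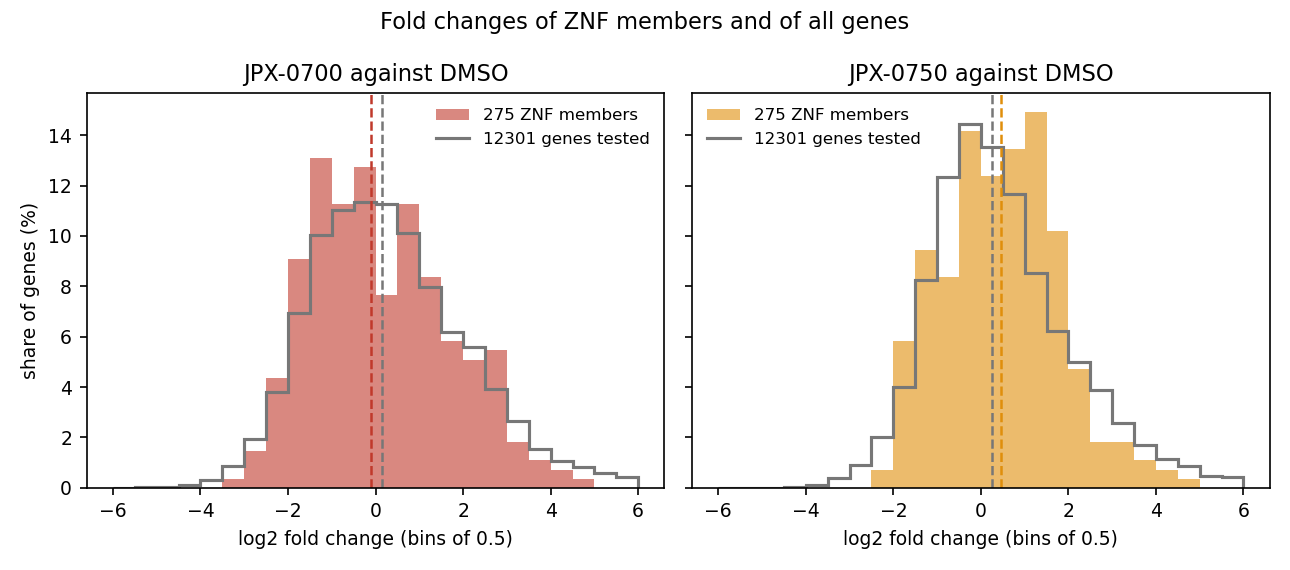
Distribution of log2 fold changes against DMSO in bins of 0.5, filled for the 275 ZNF members and outlined for the 12301 genes tested, with dashed lines at the medians. With JPX-0700 the members' median is -0.10 and that of all genes 0.14, and with JPX-0750 they are 0.45 and 0.26. In the 2 panels 168 and 178 genes tested lie beyond 6 in either direction and are not drawn, and no member does.

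In single libraries the median member, like the median of all genes tested, stood highest above DMSO in the treated libraries that detected more genes. The median member stood 0.73, 0.74 and -1.92 from the DMSO mean (log2) in JPX-0700 replicates 1 to 3, and 0.90, 0.80 and 0.23 from it in JPX-0750 replicates 1 to 3. In DMSO replicates 1 to 3 it was 0.10, -0.17 and 0.13. For all genes tested the values were 0.51, 0.51 and -0.58 in the JPX-0700 libraries, 0.63, 0.47 and -0.05 in the JPX-0750 libraries, and -0.09, 0.03 and 0.08 in the DMSO libraries. All 3 JPX-0700 libraries lay above all 3 DMSO libraries for 51 members, or 18.5%, against 16.5% of all genes tested, and all below for 12 members, or 4.36%, against 10.3%. With JPX-0750 all libraries lay above DMSO for 74 members, or 26.9%, against 19.7% of all genes tested, and below for 9, or 3.27%, against 9.18%.

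Without the 3 sparse libraries, a setting chosen after seeing the data that leaves 2 libraries a group, more members passed. With JPX-0700 32 members rose and ZNF317 fell, and with JPX-0750 38 rose and ZNF770 fell. The rises were 11.6% and 13.8% of members, against 17.5% and 17.8% of all genes tested, so again the share among ZNF genes was below that of the background, and the single falls compare with 3.6% and 3.05% of all genes tested. All 7 genes called with JPX-0700 and the 1 called with JPX-0750 in the 9 libraries were called here too. ZNF808, a KRAB gene known to silence MER11 elements and needed in humans for the pancreas to form, had the smallest adjusted p in both compounds. Its normalised counts were 253, 246 and 0 with JPX-0700, 294, 246 and 58.3 with JPX-0750, and 45.8, 13.8 and 37.1 with DMSO. The values of replicates 1 and 2 stood far above DMSO with either compound, and JPX-0700 replicate 3 had no read. Without the 3 libraries its log2 fold changes were 3.40 and 3.51 (adjusted p = 0.00607 and 0.00542), and with all 9 libraries they were 0.42 and 2.45 (adjusted p = 0.906 and 0.504). ZNF621, a KRAB gene on chromosome 3, showed the same with 157, 175 and 0 with JPX-0700, 229, 241 and 115 with JPX-0750, and 84.4, 31.8 and 51.7 with DMSO. Its JPX-0700 log2 fold change was 2.00 without the 3 libraries (adjusted p = 0.01499) and -0.80 with all 9 libraries (adjusted p = 0.780), so its sign turned with the sparse libraries. ZNF737, also a KRAB gene, had 180, 78.3 and 0 with JPX-0700, 195, 177 and 0 with JPX-0750, and 42.2, 14.2 and 32.3 with DMSO. It was at 0 in both sparse treated libraries, and its JPX-0750 log2 fold change was 3.06 without them and DMSO replicate 1 (adjusted p = 0.0135) and 0.23 with all 9 libraries (adjusted p = 0.973). Of the genes called in this setting, falls included, 23 of 33 with JPX-0700 and 26 of 39 with JPX-0750 lay on chromosome 19, beside 138 of all 275 members, and 26 and 28 had the KRAB pattern, beside 160 of all members. Genes were named here after their values were seen.

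**Figure D4:**
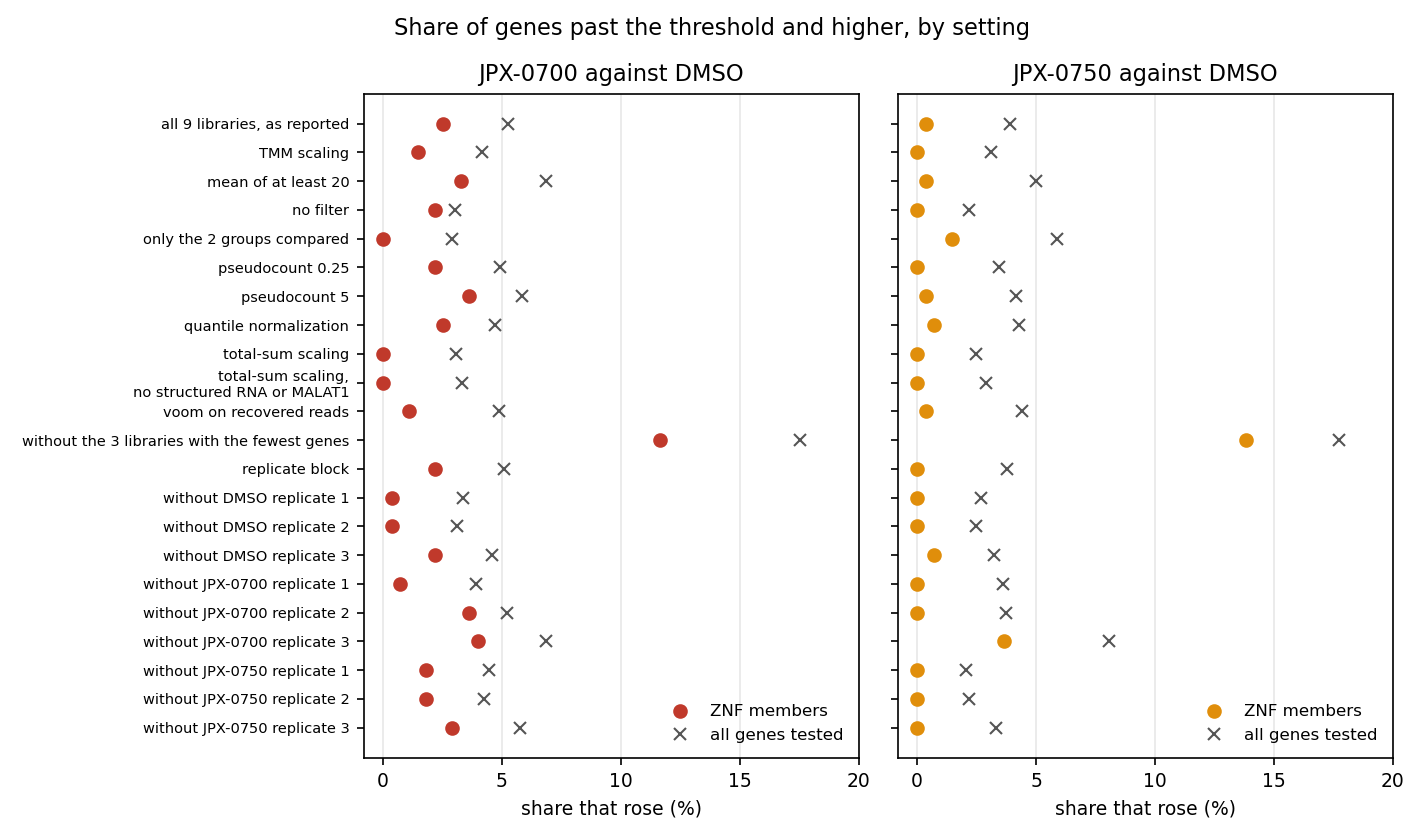
Share of the ZNF members (filled circles) and of all genes tested (crosses) that passed the threshold and were higher with each compound, in percent, under each processing setting, one per line. In the left panel the members' share is 2.55% over all 9 libraries, against 5.28% of all genes, and in the right panel 0.364%, against 3.9%. Dropping the 3 sparse libraries gives 11.6% against 17.5% on the left, and 13.8% against 17.8% on the right.

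ZNF507, a member on chromosome 19 with no KRAB pattern found, came close to the threshold with both compounds. It had 249, 212 and 300.1 normalised counts with JPX-0700, 216, 205 and 408 with JPX-0750, and 46.7, 66.7 and 86.1 with DMSO. All 6 treated libraries, the sparse ones included, were above 2 times the highest DMSO value. Its log2 fold changes were 1.94 and 2.01 (adjusted p = 0.0618 and 0.0688), and without the 3 sparse libraries they were 1.59 and 1.46 (adjusted p = 0.0202 and 0.0251). It was named after its values were seen.

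No member fell past the threshold in the 9 libraries, and the 2 lowest by p are given as values. ZNF511 had 27.7, 63.4 and 27.8 normalised counts with JPX-0700, 37.7, 40.9 and 30.0 with JPX-0750, and 131, 147 and 126 with DMSO. No treated library reached the DMSO libraries, which agreed closely. Its log2 fold changes were -1.85 ± 0.83 and -1.88 ± 0.83 (adjusted p = 0.230 and 0.304). ZNF770 had 166, 123 and 13.9 with JPX-0700, 85.6, 100 and 78.3 with JPX-0750, and 397, 249 and 221 with DMSO. Again the groups did not overlap, and the log2 fold changes were -2.06 ± 0.81 and -1.67 ± 0.81 (adjusted p = 0.165 and 0.370). These genes were picked after their values were seen. On the recovered reads with voom, a limma method that weights each value by its depth and was added after seeing the data, 3 members rose and 3 fell with JPX-0700, the falls being ZNF770, ZNF217 and ZNF24 (adjusted p = 0.0303, 0.0369 and 0.0455), and 1 rose and 0 fell with JPX-0750. Over all 12301 genes tested, that voom fit had 516 falls and 599 rises for JPX-0700. In a fit on the JPX-0750 and DMSO libraries alone, ZNF770 and ZNF511 fell with JPX-0750 (adjusted p = 0.0385 and 0.0486). These were 2 falls beside 4 rises among the 275 members, where all genes tested had 69 falls and 726 rises. Counts of 2 and 3 falls are too few to set the members above this background.

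The members with the most 3′ reads were ZNF638, ZNF106, ZNF428, ZNF207, ZNF148, ZNF326, ZNF292 and ZNF480, with mean normalised counts from 993 for ZNF638 to 393 for ZNF480, on a scale that is not divided by length. Apart from ZNF638 and ZNF292 none passed the test with either compound. ZNF106, an RNA-binding protein of the nucleus, had 940.1, 1327 and 806 with JPX-0700, 1253, 1360 and 739.7 with JPX-0750, and 850.4, 401 and 789 with DMSO. ZNF207, which delivers the checkpoint protein BUB3 to kinetochores in mitosis, had 1120, 682 and 528 with JPX-0700, 863, 655 and 581 with JPX-0750, and 686, 560 and 612 with DMSO. Both overlapped DMSO in either compound. ZNF148, a factor that binds GC-rich promoters, had 525, 678 and 717 with JPX-0700, 616, 446 and 575 with JPX-0750, and 350.2, 184 and 393 with DMSO. No treated value overlapped DMSO, but the log2 fold changes of 1.11 ± 0.47 and 0.88 ± 0.47 missed the threshold (adjusted p = 0.194 and 0.414). For ZNF428, ZNF326 and ZNF480 the log2 fold changes were 0.88, 0.74 and 0.25 with JPX-0700, against 0.88, 0.29 and 0.12 with JPX-0750, with adjusted p of at least 0.375.

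By role, the ZNF genes with tasks outside gene silencing form lists too short to set against the 5.28% of all genes tested that rose with JPX-0700 and the 3.9% that rose with JPX-0750. Of 6 tested genes for RNA binding and processing, 5 of them members, ZNF638 alone rose with JPX-0700 and none with JPX-0750. ZNF830, a spliceosome-associated protein, was next, with 184, 306 and 420 normalised counts with JPX-0700, 329, 296 and 183 with JPX-0750, and 106, 73.6 and 107 with DMSO. It did not overlap DMSO, yet its log2 fold changes of 1.60 ± 0.57 and 1.46 ± 0.57 missed the threshold (adjusted p = 0.119 and 0.214). None of the 3 genes for ribosome assembly and translation (ZNF593, ZNF622 and ZNF598) and neither of the 2 factors for small nuclear RNA promoters (ZNF143 and ZNF76) passed in either compound. ZNF598, the ubiquitin ligase that marks collided ribosomes, had log2 fold changes of -0.49 ± 0.78 in both compounds. The SUMO ligase ZNF451 had 0.93 ± 0.51 and 0.47 ± 0.51.

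Of 14 tested ZNF genes of chromatin complexes, 10 of them members, none passed, a count that the same background shares do not set apart. ZNF217, a partner of the CoREST and CtBP corepressors, had 240, 287 and 11.1 normalised counts with JPX-0700, 209, 191 and 526 with JPX-0750, and 376, 267 and 386 with DMSO. Its log2 fold change of -1.85 ± 0.91 with JPX-0700 was -0.29 without the 3 sparse libraries, and JPX-0700 replicate 3 stood far below all others. ZNF609 of the same list rose with JPX-0700 without the 3 sparse libraries (log2 fold change 2.41, adjusted p = 0.0187), and with all 9 libraries its value was 1.25 (adjusted p = 0.494). None of 11 tested retroelement repressors, 8 of them members, passed with all 9 libraries. ZNF91, which silences SVA elements, had 120, 82.0 and 292 with JPX-0700, 144, 118 and 30.0 with JPX-0750, and 27.8, 35.3 and 43.6 with DMSO. All JPX-0700 libraries were above DMSO, and JPX-0750 replicate 3 lay within the DMSO range. Its log2 fold changes were 1.99 ± 0.84 and 1.17 ± 0.84 (adjusted p = 0.199 and 0.559). Without the 3 sparse libraries 2 of the 11 repressors rose with JPX-0700 and 5 with JPX-0750, ZNF808 and ZNF649 in both. Of these 5, ZNF33A is by its symbol not a member. In that setting 17.5% and 17.8% of all genes tested rose. Of 5 tested genes tied to leukaemia and blood cells none passed, and their median log2 fold changes were -0.49 with JPX-0700 and 0.75 with JPX-0750. ZNF384, a fusion partner in B-cell leukaemia, had log2 fold changes of 0.74 ± 1.18 and 1.93 ± 1.18. ZNF148 of the same list was also positive with both compounds. With JPX-0700 the others were negative, at -2.50 ± 1.45 for ZNF362, -2.32 ± 1.35 for ZNF268 and -0.49 ± 1.51 for ZNF589. With JPX-0750 ZNF362 and ZNF589 were negative and ZNF268 was positive.

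KRAB proteins act through corepressors, and of 26 tested corepressor and heterochromatin genes 1 (CHD3) rose and none fell with each compound, beside rises of 5.28% and 3.9% of all genes tested. CHD3 encodes a helicase of the NuRD deacetylase complex that binds TRIM28. It had 1055, 1539 and 1451 normalised counts with JPX-0700, 1448, 1323 and 631 with JPX-0750, and 277, 173 and 355 with DMSO. It rose by 2.37 ± 0.47 and 2.05 ± 0.47 (adjusted p = 0.00387 and 0.0152). The JPX-0750 call was lost without JPX-0750 replicate 1, JPX-0750 replicate 2 or DMSO replicate 2 (adjusted p = 0.137, 0.114 and 0.0960), under total-sum scaling (0.0929) and with voom (0.0608). TRIM28, the scaffold itself, had 217, 201 and 411 with JPX-0700, 301, 218 and 470 with JPX-0750, and 258, 850 and 580 with DMSO. These values overlapped, and the log2 fold changes of -0.94 ± 0.56 and -0.68 ± 0.56 missed the threshold (adjusted p = 0.365 and 0.617). Without the 3 sparse libraries TRIM28 fell with both compounds (log2 fold changes -1.75 and -1.45, adjusted p = 0.0163 and 0.0277), WIZ fell with JPX-0700 (adjusted p = 0.0434), and MPHOSPH8, a subunit of the HUSH silencing complex, rose with JPX-0750 (adjusted p = 0.0406). SETDB1, the methyltransferase, had log2 fold changes of 1.21 ± 0.76 and 0.79 ± 0.76, with adjusted p of 0.393 and 0.677.

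Members on chromosome 19 had a median log2 fold change of 0.24 with JPX-0700 and 0.69 with JPX-0750, and members on other chromosomes had -0.28 and 0.29. The 562 other coding genes of chromosome 19 with a mean of at least 20 had -0.16 and -0.01. Members with the KRAB pattern had medians of -0.04 and 0.73, and those with none found had -0.16 and 0.21. Members with the pattern outside chromosome 19 had -0.69 and 0.74, and 19 of these 47 were at 0 in JPX-0700 replicate 3. Without the 3 sparse libraries the medians were 0.84 and 1.03 for chromosome 19 members and 0.50 and 0.73 for the others, against 0.39 and 0.47 for all genes tested. Under total-sum scaling the chromosome 19 medians were -0.43 and 0.18 and those of the other members -0.94 and -0.25, so the order of these groups was kept in the 3 settings while their direction was not. These are descriptions over genes of the same libraries, with no test. Along chromosome 19 the ZNF rows were split into runs where neighbours lay over 1 Mb apart. Only the 7 runs with the most members are described, and the members in smaller runs are left out. In these 7 runs the members' medians with JPX-0750 ran from 0.22 in the run of 14 members from 36182060 to 37779586 to 1.15 in the run of 9 from 11483429 to 12633834. With JPX-0700 they ran from -0.35 in the run of 33 members from 55476617 to 58489533 to 1.24 in the run of 11 from 7069703 to 9786160. The order of the runs changed without the 3 sparse libraries: the run of 14 members then had 1.40 with JPX-0750, where the runs ranged from 0.65 to 1.42, and the run of 11 had 0.85 with JPX-0700, where they ranged from 0.50 to 1.32.

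In other C2H2 families single genes rose, beside a background of 6.69% with JPX-0700 and 4.93% with JPX-0750 over all genes with a mean of at least 20. Of 26 ZBTB genes with a mean of at least 20, 1 rose with JPX-0700 and 0 with JPX-0750. Of 6 ZSCAN genes 1 rose with each compound, of 9 ZFP genes 1 rose with each, and of 5 ZKSCAN genes none did. Counts over lists this small set no family apart from the background.

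JPX-0750 and JPX-0700 were compared directly as 1 pair of compounds, at the same time and at doses not given in the labels. No member and none of the 12301 genes tested passed the threshold by limma in either direction, so the share called was 0%. At an unadjusted p under 0.05, 3 members were higher and 4 lower with JPX-0750, which is 1.09% and 1.45% of members against 1.61% and 1.6% of all genes tested, and voom called 0 members. All 3 JPX-0750 libraries lay above all JPX-0700 libraries for 15 members, or 5.45%, against 4.72% of all genes tested, and below for 6, or 2.18%, against 3.63%. The 95% interval of the difference held 0 for 268 members, and its median width was 5.25 log2 units, from 1.84 to 8.26. ZNF638 differed by -0.49 (log2 interval -1.49 to 0.51), ZNF431 by -0.50 (-2.21 to 1.21) and ZNF460 by 1.57 (-1.08 to 4.21). ZNF511 differed by -0.03 with an interval of -1.78 to 1.73. Intervals this wide do not show that the compounds acted alike on these genes.

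The smallest p between the compounds belonged to ZNF580. It had 85.6, 123 and 175 normalised counts with JPX-0750, against 32.3, 67.1 and 8.34 with JPX-0700, and the groups did not overlap. Its log2 difference was 2.16 ± 0.92 (adjusted p = 0.848). ZNF805 had 85.6, 50.0 and 41.6 with JPX-0750, against 147, 116 and 692 with JPX-0700. Its log2 difference was -2.00 ± 0.87 (adjusted p = 0.848), and the highest value was that of JPX-0700 replicate 3. These 2 genes were named after their values were seen.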

How the data were processed

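RNA from MV4-11 cells was sequenced from its 3′ ends with the QuantSeq kit, per the labels' protocols. Tools named in the submitters' processing notes are STAR 2.4.2a, featureCounts 2.0.3 and DESeq2, with the build GRCh38. The deposited table holds normalised counts, other than raw reads, for 26929 symbols in 9 columns. Dividing each column by its smallest value above 0 gave whole numbers throughout (tolerance 1e-06), taken as the recovered reads. Symbols were matched to RefSeq (all 475 ZNF rows, 4 by a synonym), and finger and KRAB patterns were sought in coding transcripts of GENCODE release 29.

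limma 3.58.1 in R 4.3.3 fitted log2(normalised count + 1) over all 9 libraries, with variances that follow a trend, for the 12301 genes with a mean of at least 5. Tests were two-sided and adjusted by Benjamini-Hochberg over all genes tested, and "rose" and "fell" refer to an adjusted p under 0.05. The script was tested on simulated data. A finger was counted as a cysteine, 2 to 4 residues, a cysteine, 12 residues, a histidine, 3 to 5 residues and a histidine.

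Genes were named by a rule: members past the threshold, the 8 with the largest mean, 4 on either side of the minimum, and up to 4 per role list; others are said to be chosen after seeing values. The members and the lists were chosen with earlier results of these data known, and members were chosen on their mean over the 9 libraries, the groups compared included. Deviations from the group means correlated over genes at r = 0.129, 0.171 and 0.190 between same-numbered JPX-0750 and JPX-0700 libraries. Different numbers gave -0.198 to 0.153, so the ranges overlapped, and the 0.190 joined the sparse replicates 3 of both compounds. These values do not show a pairing by number. The direct comparison was also fitted with the number as a block, which called 0 members too. Alternatives were other pseudocounts, filters, scalings, sample sets and a replicate block. Of the 12 markers of other lineages first listed, 2 are not reported here, and the sums are over the other 10.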

Additional observations from a re-analysis of the deposited data

How the results depend on the processing

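Counts of called members moved with the processing, and the JPX-0750 count of 1 moved in most alternatives. With JPX-0700, 7 members passed as reported, 0 under total-sum scaling with or without structured RNA and MALAT1, 4 under TMM scaling, 0 with only the 2 groups compared and 33 without the 3 sparse libraries (JPX-0700 replicate 3, JPX-0750 replicate 3 and DMSO replicate 1). With JPX-0750, 1 passed as reported, 0 with a pseudocount of 0.25, no filter, total-sum scaling of either kind or TMM scaling, 2 after quantile normalization, 6 with only the 2 groups compared and 39 without the 3 libraries. Leaving out 1 library gave 1 (without DMSO replicate 1 or 2) to 11 (without JPX-0700 replicate 3) with JPX-0700, with 2 without JPX-0700 replicate 1, and 0 to 11 with JPX-0750, the 11 also without JPX-0700 replicate 3 and 2 without DMSO replicate 3. The share of all genes tested that rose moved too. With JPX-0700 it was 5.28% as reported, 3.07% under total-sum scaling and 4.17% under TMM scaling. It was 2.92% with only the 2 groups compared, 17.5% without the 3 libraries and 6.85% without JPX-0700 replicate 3. With JPX-0750 these shares were, in the same order, 3.9%, 2.47%, 3.12%, 5.9%, 17.8% and 8.06%. Between the compounds the count was 0 in all 21 alternatives run. No fold change of the 8 called members changed sign in these alternatives.

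The members' median minus that of all genes with JPX-0750 was 0.14 with a pseudocount of 0.25, 0.13 without a filter, 0.32 at a mean of at least 20, 0.16 under total-sum scaling, 0.37 without the 3 libraries, and 0.038 to 0.27 with 1 library left out. The JPX-0700 value ran from -0.52 to 0.14 with 1 library left out, and was 0.33 without the 3 libraries. Without structured RNA in the total, ZNF rows took 0.926% of reads with JPX-0700, 0.944% with JPX-0750 and 0.832% with DMSO. Over all genes tested, 649 rose and 61 fell with JPX-0700 as reported, 378 and 283 under total-sum scaling and 599 and 516 with voom; with JPX-0750 they were 480 and 9, 304 and 57, and 540 and 146. Same-numbered treated and DMSO libraries did not deviate together (r = -0.143 to -0.0436), and with the replicate block 6 members passed with JPX-0700, 0 with JPX-0750 and 0 between the compounds. The planned count models were not run, although whole reads were recovered by division. In their place voom, chosen after seeing the data, was run on these recovered reads. The cause of each move was not tested. The median member had 3 to 27 reads in treated libraries.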
